A study of Homo sapiens with 4 samples.

Results

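The genes described here are the ligands of the epidermal growth factor (EGF) family and the ERBB receptors that bind them, measured in the bone-metastatic prostate cancer line PC-3-BM and in its parental line PC-3. The 10 members were chosen by name (EPGN, EREG, AREG, HBEGF, TGFA, BTC, NRG1, EGFR, ERBB2 and ERBB3), and the family was taken up because the EPGN value differed between the lines in these same arrays. Each member was read from the probe sets that carry its symbol and no other, the brightest over the 4 arrays where there were several. This gave 9 members of 18417 genes with such a probe set, and AREG was not analysed here. Because EPGN led to the choice, its values are a description with no test, and counts of members below are over the other 8.

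PC-3-BM cells came from bone metastases that PC-3 cells formed in nude mice, with repeated rounds of injection into the heart and short expansion in culture between them, and the methods call the line a clone. PC-3 is an established line from a bone metastasis of a prostate carcinoma. According to the methods, both lines carried firefly luciferase and green fluorescent protein. The labels give PC-3-BM a high metastatic potential and PC-3 a poor one. RNA of 2 PC-3-BM and 2 PC-3 samples was hybridised to Affymetrix Human Gene 1.0 ST arrays, 1 array per sample, and the deposited values are log2 robust multi-array average (RMA) levels. Every difference below is PC-3-BM minus PC-3 on the log2 scale, and calls are at an adjusted p under 0.05 over all probe sets. The labels speak of cells grown in mice and the methods of cells in culture, so the state of the cells when RNA was taken was not settled. No source says that the 2 samples of a line were separate cultures, so the p-values below cover no more than array-to-array spread, which technical variation alone could set.

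EGF family ligands are made as membrane-anchored precursors, and metalloproteases of the ADAM family cut the extracellular part free. A ligand brings ERBB receptors together in pairs. EGFR, also called ERBB1, binds EPGN, EREG, AREG, HBEGF, TGFA, BTC and EGF itself, while ERBB3 and ERBB4 bind the neuregulins, and HBEGF, BTC and EREG also bind ERBB4. ERBB2 has no known ligand of its own and pairs with the other receptors, and ERBB3 has little kinase activity of its own. The paired receptors signal mainly through the RAS-ERK and PI3K-AKT pathways. In prostate cancer the family is known for supporting growth when androgen signalling is low.

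EPGN, EREG and BTC lie next to one another on chromosome 4, with AREG between EREG and BTC, and the values of the measured ones did not move together: EPGN was higher in PC-3-BM, and EREG and BTC gave small negative differences that did not pass the test. The RefSeq promoter windows (GRCh38.p14, 250 bases before to 50 after the start of the gene) of these measured ligands, and of EGFR, are shown because EPGN led to the choice of the family, EREG and BTC stand beside it, and EGFR was the member that passed the test. Capitals mark CG steps, the positions at which DNA can be methylated. The windows are chr4:74308220-74308519 on the plus strand for EPGN, chr4:74364895-74365194 on the plus strand for EREG, chr4:74794474-74794773 on the minus strand for BTC and chr7:55018767-55019066 on the plus strand for EGFR.
EPGN: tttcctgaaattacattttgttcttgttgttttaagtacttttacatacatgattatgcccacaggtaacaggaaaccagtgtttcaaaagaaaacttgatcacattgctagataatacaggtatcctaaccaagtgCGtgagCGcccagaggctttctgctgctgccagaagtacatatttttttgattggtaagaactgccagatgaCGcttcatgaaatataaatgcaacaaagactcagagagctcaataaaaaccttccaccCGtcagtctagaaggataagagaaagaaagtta
EREG: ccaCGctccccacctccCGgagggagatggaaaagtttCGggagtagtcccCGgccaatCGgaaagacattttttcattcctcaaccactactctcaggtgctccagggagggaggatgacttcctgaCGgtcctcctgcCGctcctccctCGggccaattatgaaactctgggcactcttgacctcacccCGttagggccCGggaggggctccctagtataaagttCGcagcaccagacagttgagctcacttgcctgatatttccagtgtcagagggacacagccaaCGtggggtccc
BTC: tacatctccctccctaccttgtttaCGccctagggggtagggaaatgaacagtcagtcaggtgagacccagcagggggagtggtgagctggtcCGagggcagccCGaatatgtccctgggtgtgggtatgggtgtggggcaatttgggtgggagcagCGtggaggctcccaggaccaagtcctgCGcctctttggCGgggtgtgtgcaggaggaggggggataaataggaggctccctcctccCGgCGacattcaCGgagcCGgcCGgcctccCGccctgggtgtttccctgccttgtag
EGFR: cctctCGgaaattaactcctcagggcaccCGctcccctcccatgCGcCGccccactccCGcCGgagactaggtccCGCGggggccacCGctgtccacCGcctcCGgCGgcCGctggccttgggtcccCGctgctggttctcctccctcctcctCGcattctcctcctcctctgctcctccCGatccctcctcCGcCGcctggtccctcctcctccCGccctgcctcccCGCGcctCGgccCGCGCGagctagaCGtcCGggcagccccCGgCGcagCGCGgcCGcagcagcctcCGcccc

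The EPGN window held 4 CG steps and was 37.7% G or C, and 29.6% of the 35116 promoter windows in the RefSeq table had as few CG steps or fewer. The EREG and BTC windows held 12 CG steps each, and the EGFR window held 33. A further EGFR window in the table, not shown, held 1. HBEGF had 38 CG steps, the windows of TGFA 30 and 22, ERBB2 24 and ERBB4 19. The median over all windows was 14. The TATA box letters TATAAA, searched on both strands, were in the EPGN and EREG windows, 29 and 32 bases before the start, and in 11.5% of all windows. They were not in the BTC window or in the EGFR window shown. The AP-1 letters TGANTCA and the CRE letters TGACGTCA, searched the same way, were in none of the 4 windows shown and in 7.71% and 1.85% of all windows. The further EGFR window, not shown, held both the TATAAA and the AP-1 letters, and the ERBB2 window held the AP-1 letters. The GC box letters GGGCGG were in the BTC and EGFR windows and in 45% of all windows. These are matches of letters only, and no binding or methylation was measured here.

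EPGN encodes epigen, a ligand of EGFR. Its probe set read 8.97 and 8.88 on the PC-3-BM arrays, against 5.10 and 5.02 on the PC-3 arrays (log2 RMA level). Both PC-3-BM arrays stood far above both PC-3 arrays. The means were 8.93 ± 0.06 in PC-3-BM and 5.06 ± 0.06 in PC-3 (SD, n = 2 each), a log2 difference of 3.86 (SE 0.08), or 14.6-fold. By size of rise EPGN ranked 3 among all 33297 probe sets. The PC-3 level lay close to the lower quartile of all probe set means, which was 5.03, so the size of the fold rests on a dim value in PC-3. In bulk RNA, more cells that express a gene and more RNA per cell cannot be told apart.

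**Figure D1:**
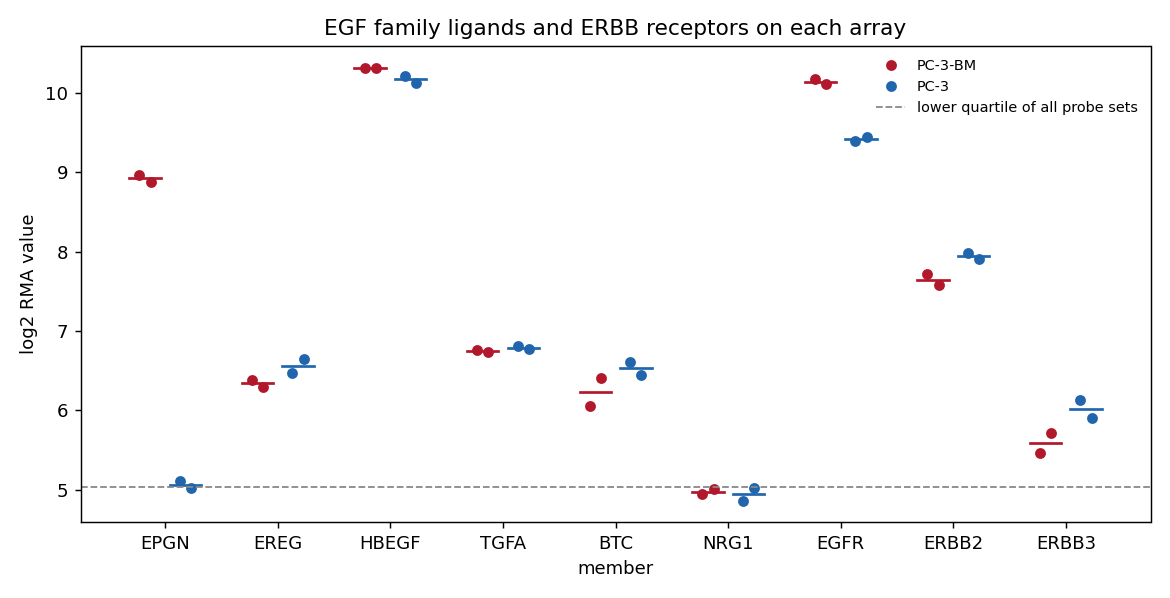
Log2 RMA value (y axis) of the 9 measured members (x axis) on each array, PC-3-BM in red on the left and PC-3 in blue on the right of each pair. Points are arrays, bars are means of 2 arrays and the dashed line is the lower quartile of all probe set means, 5.03. EPGN stood at 8.97 and 8.88 in PC-3-BM and at 5.10 and 5.02 in PC-3, and NRG1 lay at the dashed line in both lines.

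EGFR, the receptor for EPGN, rose in PC-3-BM. It read 10.18 and 10.11 in PC-3-BM, against 9.40 and 9.45 in PC-3. The PC-3-BM arrays were both higher and the groups did not overlap. The log2 difference was 0.72 (SE 0.07, 95% interval 0.53 to 0.91), or 1.65-fold, with a limma adjusted p of 0.00485. Among the 8 members other than EPGN, 1 (EGFR) rose at an adjusted p under 0.05, and across all genes 14.8% rose by the same measure. EGFR stayed past the threshold whichever array was left out, and it did not pass without moderation of the variance (adjusted p = 0.0745).

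ERBB2 and ERBB3 read lower in PC-3-BM on each array, without passing the test over all probe sets. ERBB2, the receptor with no known ligand, read 7.71 and 7.58 in PC-3-BM, against 7.98 and 7.91 in PC-3, a log2 difference of -0.30 (SE 0.08, 95% interval -0.51 to -0.08, limma adjusted p = 0.0627). ERBB3, a neuregulin receptor, read 5.46 and 5.72 in PC-3-BM, against 6.14 and 5.90 in PC-3, a log2 difference of -0.43 (SE 0.13, 95% interval -0.76 to -0.10, limma adjusted p = 0.0769). Neither receptor's arrays overlapped between the lines. Fitted among the probe sets with exactly 1 gene symbol, ERBB2 had an adjusted p of 0.021 and ERBB3 of 0.0226. ERBB2 passed with dim probe sets left out (0.0408) and with a variance trend (0.0415) too, and ERBB3 did not.

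None of the 8 members other than EPGN fell at an adjusted p under 0.05 by limma, where 14.8% of all genes fell. At an unadjusted limma p under 0.05, 2 of the 8 were lower, ERBB2 and ERBB3, and 1 was higher, EGFR. Of all 18417 genes, 4268 were lower and 3742 higher by that measure. Both PC-3-BM arrays stood above both PC-3 arrays for 2 of the 8 members (EGFR and HBEGF), as for 30.9% of all genes. Both PC-3-BM arrays stood below both PC-3 arrays for 5 of the 8 (EREG, TGFA, BTC, ERBB2 and ERBB3), as for 39.8% of all genes. The median log2 difference of the 8 was -0.13, against -0.04 over all genes. An exact permutation test of 2 arrays against 2 cannot give a two-sided p below 0.333, so single members were not tested that way.

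The ligands beside EPGN on the chromosome did not pass the test. EREG encodes epiregulin, a ligand of EGFR and ERBB4, and read 6.38 and 6.30 in PC-3-BM, against 6.47 and 6.65 in PC-3. Its log2 difference was -0.22 (SE 0.09, 95% interval -0.46 to 0.02, limma adjusted p = 0.16). BTC encodes betacellulin, which binds the same receptors, and read 6.05 and 6.41 in PC-3-BM, against 6.61 and 6.45 in PC-3. The PC-3-BM arrays differed from each other more than the PC-3 arrays did, and the log2 difference was -0.30 (SE 0.14, 95% interval -0.67 to 0.07, limma adjusted p = 0.203).

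HBEGF, TGFA and NRG1 did not pass the test either. HBEGF, the heparin-binding ligand of EGFR and ERBB4, read 10.32 and 10.32 in PC-3-BM, against 10.22 and 10.12 in PC-3. The PC-3-BM arrays were higher by a log2 difference of 0.15 (SE 0.07, 95% interval -0.04 to 0.34, limma adjusted p = 0.217). TGFA, a ligand of EGFR, read 6.76 and 6.74 in PC-3-BM, against 6.81 and 6.77 in PC-3. Its log2 difference was -0.04 (SE 0.07, 95% interval -0.21 to 0.14, limma adjusted p = 0.749), so a change as large as that of EGFR lay outside the interval.

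NRG1, the neuregulin that binds ERBB3 and ERBB4, was the 1 member with 2 probe sets. The brighter read 4.95 and 5.0 in PC-3-BM, against 4.86 and 5.03 in PC-3, with overlapping arrays, a log2 difference of 0.03 (SE 0.09) and a limma adjusted p of 0.837. The other read 4.31 and 4.38 in PC-3-BM, against 4.47 and 4.40 in PC-3, a log2 difference of -0.09 (SE 0.07, limma adjusted p = 0.447). The probe sets had opposite signs, both were dim, with means under the lower quartile of the array, and a change in a transcript this dim may not be detectable on these arrays.

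**Figure D2:**
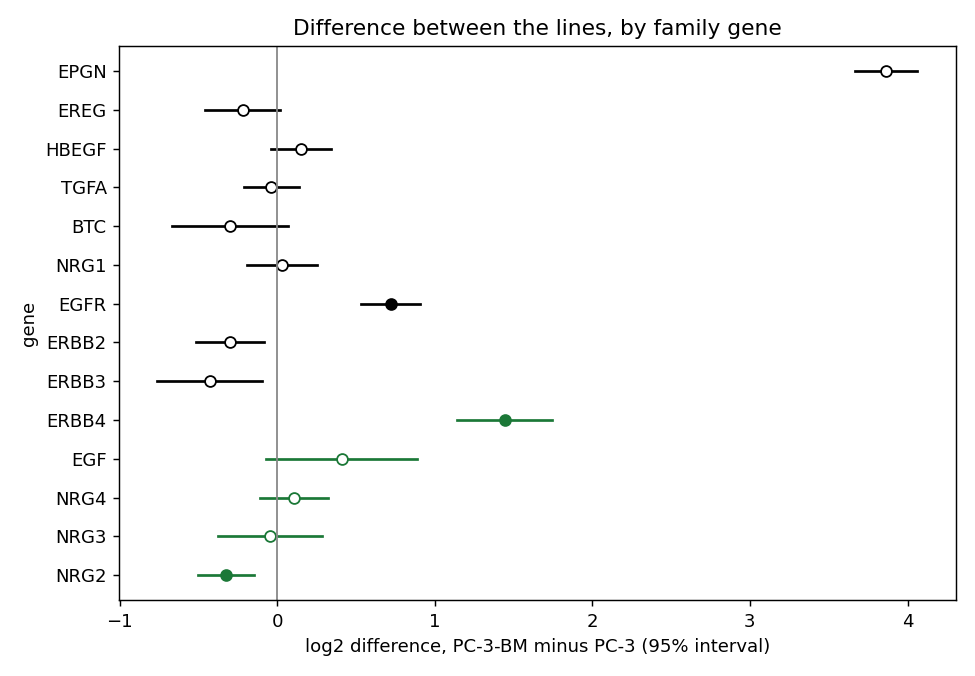
Log2 difference, PC-3-BM minus PC-3 (x axis), of each measured member (black) and of the other genes of the family (green), with 95% intervals from limma. Filled points passed an adjusted p under 0.05: EGFR at 0.72, ERBB4 at 1.44 and NRG2 at -0.32. EPGN, at 3.86, is drawn open because it led to the choice of the family and is not read as a test. Its interval is a description only.

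The remaining genes of the family were EGF, NRG2, NRG3, NRG4 and ERBB4, of which 1 rose, 1 fell and 3 did not pass the test. The shares were 20% higher and 20% lower, beside 14.8% each over all genes. ERBB4, the neuregulin receptor that EREG, HBEGF and BTC also bind, read 7.29 and 7.55 in PC-3-BM, against 6.05 and 5.90 in PC-3. The PC-3-BM arrays were both higher, by a log2 difference of 1.44 (SE 0.12), or 2.72-fold, with a limma adjusted p of 0.00327. It stayed past the threshold whichever array was left out. Of the 4 receptors, EGFR and ERBB4 thus rose while ERBB2 and ERBB3 had negative differences that did not pass.

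NRG2, a neuregulin, fell by 0.32 on the log2 scale (SE 0.07, limma adjusted p = 0.0311), with levels of 8.07 and 8.12 in PC-3-BM, against 8.41 and 8.43 in PC-3. That call was lost whichever array was left out, with an adjusted p of up to 0.136. EGF, the ligand that names the family, read 5.90 and 5.75 in PC-3-BM, against 5.67 and 5.15 in PC-3, a log2 difference of 0.41 (SE 0.19). The PC-3 arrays differed from each other by more than this difference, and the test was not passed.

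The 10 measured genes that flank EPGN, EREG and BTC, 5 on each side, differed by between -0.97 and 0.64 on the log2 scale, so none came near the EPGN value. Of these, 2 rose, 3 fell and 5 did not pass, beside 14.8% higher and 14.8% lower over all genes. None passed the thresholds of the study (an adjusted p under 0.001 and an absolute log2 difference over 2), which 0.0511% of all probe sets passed. MTHFD2L, a mitochondrial folate enzyme and the nearest measured gene before EPGN, rose by 0.61 (SE 0.11, limma adjusted p = 0.021), a call kept only when the PC-3.2 array was left out. CXCL2, a neutrophil-attracting chemokine 1 gene further on, rose by 0.64 (SE 0.07, limma adjusted p = 0.00527). PARM1, a mucin-like gene known from the prostate and the nearest measured gene after BTC, fell by 0.97 (SE 0.07, limma adjusted p = 0.00271). Its antisense partner PARM1-AS1 differed by 0.27 (SE 0.24) and did not pass. RCHY1 and THAP6, the other genes that fell, were named after their values were seen, with differences of -0.43 and -0.63. The RCHY1 call was lost whichever array was left out, and the THAP6 call without PC-3-BM.2 or PC-3.2.

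**Figure D3:**
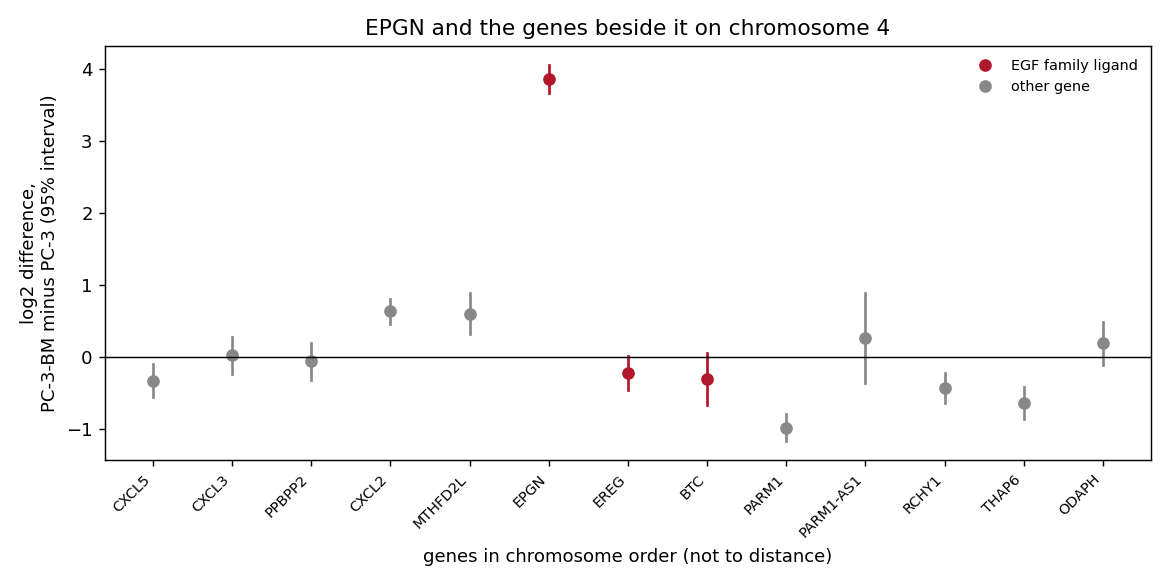
Log2 difference, PC-3-BM minus PC-3 (y axis), with 95% intervals, of EPGN, EREG and BTC (red) and of the 5 measured genes on each side (grey), in the order of the RefSeq gene table and not to distance. EPGN stood at 3.86, with an interval that is a description only, and its neighbours lay between -0.97 and 0.64.

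Of the 10 measured neighbours of EGFR 2 rose, 1 fell and 7 did not pass, beside 14.8% higher and 14.8% lower over all genes. The nearest on one side, VSTM2A, differed by -0.31 (SE 0.08, limma adjusted p = 0.0542) and the next, LINC01446, fell by 0.97 (SE 0.09, limma adjusted p = 0.00435). On the other side, LANCL2 differed by -0.10 and VOPP1 by 0.11, with neither passing. The genes that rose, named after their values were seen, were FKBP9P1, a pseudogene whose signal may include that of its parent gene, by 1.25 and GRB10, an adaptor of receptor tyrosine kinases, by 0.75. Around ERBB2, 3 of 10 neighbours rose (STARD3 by 0.32, PGAP3 by 0.31 and GSDMB by 0.78), and the differences of MIEN1 and GRB7 on its other side, -0.13 and -0.28, did not pass. The STARD3 and PGAP3 calls were lost whichever array was left out, and the GSDMB call when either PC-3 array was. Around ERBB4, 2 of 10 neighbours rose and none fell. KANSL1L, named after its values were seen, rose by 1.29 (SE 0.11, limma adjusted p = 0.00375) and kept its call whichever array was left out, a difference close to that of ERBB4, while VWC2L rose by 0.45, a call lost whichever array was left out. The nearest genes CPS1-IT1 and IKZF2, on either side of ERBB4, differed by -0.08 and 0.20 and did not pass.

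Across the whole array, the 3 genes whose centred 4-array profiles lay nearest to that of EPGN by Euclidean distance were RGS9, CHRNA1 and CSAG1. RGS9, a regulator of G protein signalling, read 9.87 and 9.79 in PC-3-BM, against 6.54 and 6.54 in PC-3 (distance 0.571). CHRNA1, the muscle acetylcholine receptor subunit, read 9.73 and 9.81 in PC-3-BM, against 5.37 and 6.05 in PC-3 (distance 0.585). CSAG1, a cancer-testis antigen, read 10.17 and 10.07 in PC-3-BM, against 6.83 and 7.02 in PC-3 (distance 0.698). With 4 arrays of 2 lines, likeness means little more than a difference of similar size.

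The genes that release the ligands were listed next. This list and those below were chosen with earlier results of these data known, so their shares are descriptions and no test. Of 17 measured sheddases and trafficking factors 8 rose, 2 fell and 7 did not pass. The shares were 47.1% higher and 11.8% lower, beside 14.8% each over all genes, and the median log2 difference was 0.08, against -0.04 over all genes. Brightness was not matched, as 4 of the 17 lay below the median of all probe set means. The same held for 1 of 14, 5 of 30, 2 of 27 and 1 of 18 genes in the lists that follow. Over all probe sets 7717 of 33297 passed, against 8624 of 25094 with dim ones left out. The fit without dim probe sets also set the variances and adjusted p-values anew, so the part of brightness in its larger share was not tested. A bright list may hold more calls than all genes do. ADAM19, a metalloprotease known to act on neuregulins, fell by 1.16 (SE 0.07, limma adjusted p = 0.00183). RHBDF1, the inactive rhomboid iRhom1 that carries ADAM17 to the cell surface, rose by 1.03 (SE 0.07, limma adjusted p = 0.00247). ADAM12, which can release HBEGF, rose by 0.81 (SE 0.07), and ADAM8 rose by 0.65 (SE 0.11). ADAM17, the main sheddase of several EGFR ligands, named after its values were seen, read 9.44 and 9.37 in PC-3-BM, against 8.78 and 8.81 in PC-3, a log2 difference of 0.61 (SE 0.07, limma adjusted p = 0.00673). The ADAM17 call was lost when either PC-3 array was left out and the ADAM8 call when PC-3-BM.1 or either PC-3 array was left out. MAP4K4, ADAM9, ADAM10 and BACE2 also rose, by 0.53, 0.52, 0.42 and 0.36, and ADAM15 fell by 0.35, all named after their values were seen. ADAM10 is the main sheddase of BTC and of EGF. The calls of ADAM9, ADAM10, BACE2 and ADAM15 were lost whichever array was left out, and that of MAP4K4 when PC-3-BM.1 or either PC-3 array was. With 1 array left out fewer genes of the list rose, as did fewer probe sets over the whole array.

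**Figure D4:**
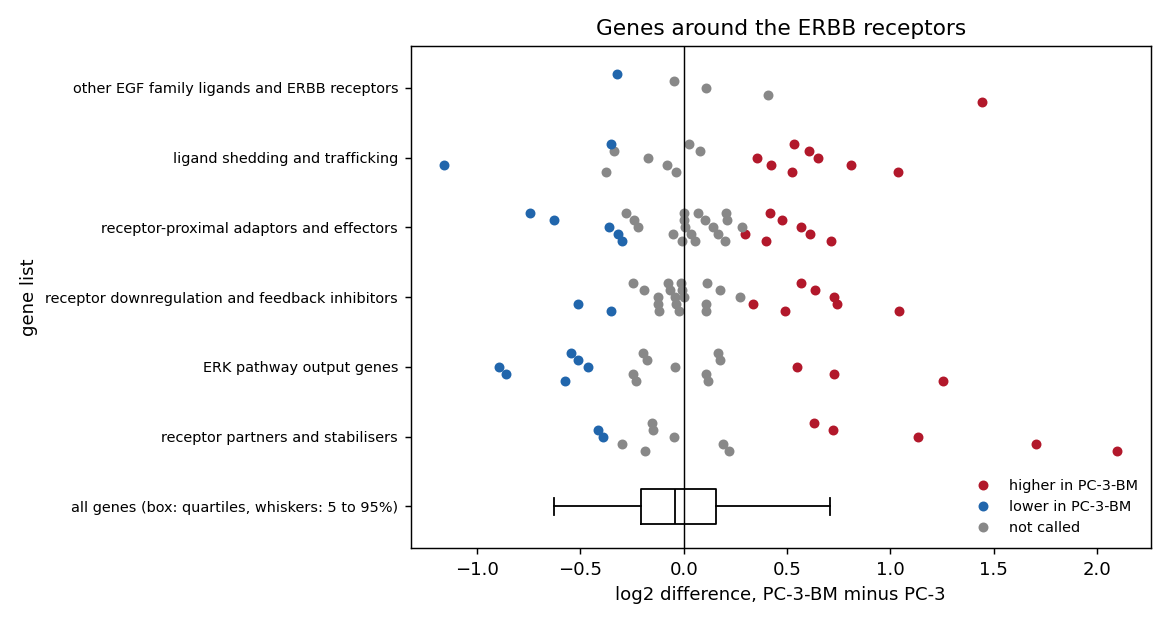
Log2 difference, PC-3-BM minus PC-3 (x axis), of each measured gene of 6 lists (rows, points spread vertically only for legibility), red where higher and blue where lower at an adjusted p under 0.05, grey otherwise. The lowest row gives all 18417 genes, with the median at -0.04. Of the 17 shedding and trafficking genes 8 are red, and of the 18 ERK output genes 6 are blue.

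Among the lists, genes for proteins that partner or stabilise the receptors held the largest rise, that of AGR2. Of 14 measured, 5 rose, 2 fell and 7 did not pass, shares of 35.7% higher and 14.3% lower beside 14.8% each over all genes, with a median log2 difference of 0.07. AGR2, a disulfide isomerase of the endoplasmic reticulum that helps EGFR reach the cell surface, read 11.21 and 10.85 in PC-3-BM, against 8.99 and 8.87 in PC-3. It rose by 2.10 (SE 0.14, limma adjusted p = 0.0023), or 4.27-fold. The tetraspanins CD82, which dampens EGFR signalling, and CD9, which binds the HBEGF precursor, rose by 1.70 (SE 0.16) and 1.13 (SE 0.07). CAV1, the caveolar coat protein, rose by 0.72 (SE 0.07). These 4 calls held whichever array was left out. ERBIN, a scaffold that binds ERBB2, rose by 0.63 and, like the 2 genes that fell, was named after its values were seen. Those were MUC1, a mucin that binds ERBB receptors, by 0.42 and HSP90AA1, a chaperone of ERBB2, by 0.39, and neither fall was counted in any fit with 1 array left out. Known roles within the list oppose each other, since CD82 acts against the receptors and AGR2 for them.

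Of 30 measured adaptors and effectors that act next to the receptors 7 rose, 5 fell and 18 did not pass, with a median log2 difference of 0.06. The shares were 23.3% higher and 16.7% lower, beside 14.8% each over all genes, so that of the falls was close to the background. AKT1, a kinase downstream of PI3K, read 9.95 and 9.97 in PC-3-BM, against 10.67 and 10.74 in PC-3, and fell by 0.75 (SE 0.07, limma adjusted p = 0.00435). EPS8, a substrate of EGFR that acts on actin, rose by 0.71 (SE 0.09). VAV3 fell by 0.63 (SE 0.12), and GAB2, a docking protein, rose by 0.61 (SE 0.12). SHC1, the adaptor that couples ERBB receptors to RAS, rose by 0.57, and SOS1 and SOS2, the RAS exchange factors, went opposite ways, with differences of -0.32 and 0.42. VAV2 and PIK3CB fell as well, by 0.36 and 0.30. These 5 were named after their values were seen. Of the calls in this list, that of AKT1 held whichever array was left out, the EPS8 call was lost without PC-3.1, and the VAV3 and GAB2 calls were lost when PC-3-BM.1 or either PC-3 array was left out. The SHC1 call was lost when either PC-3 array was left out, and those of SOS1, SOS2, VAV2 and PIK3CB whichever array was. Fewer genes of the list rose when 1 array was left out, as did fewer probe sets over the whole array.

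Genes tied to receptor downregulation and feedback inhibition included 7 that rose and 2 that fell among 27 measured. A further 18 did not pass, and the median log2 difference was -0.01. The shares were 25.9% higher and 7.41% lower, beside 14.8% each over all genes. DUSP5, a nuclear ERK phosphatase, read 11.21 and 11.17 in PC-3-BM, against 10.16 and 10.14 in PC-3, and rose by 1.04 (SE 0.07, limma adjusted p = 0.00228). LRIG3, a transmembrane protein of a family that regulates ERBB receptors, rose by 0.74 (SE 0.07). SPRY2, a Sprouty inhibitor of growth factor signalling, rose by 0.73 (SE 0.08). CBLB, a ubiquitin ligase that sends EGFR to degradation, rose by 0.64 (SE 0.07), a call lost without PC-3.2. Within the Sprouty family the directions differed, as SPRY4 and SPRY1, named after their values were seen, fell by 0.51 and 0.35 on the log2 scale. The SPRY4 call was lost when PC-3-BM.1 or either PC-3 array was left out, and the SPRY1 call whichever array was left out. ERRFI1, a feedback inhibitor that binds the EGFR kinase and was likewise named afterwards, read 13.25 and 13.20 in PC-3-BM, against 12.65 and 12.67 in PC-3, and rose by 0.57 (SE 0.07, limma adjusted p = 0.00719), a call lost when either PC-3 array was left out.

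Genes whose transcription follows ERK activity moved both ways. Of 18 measured, 3 rose, 6 fell and 9 did not pass, shares of 16.7% higher and 33.3% lower beside 14.8% each over all genes, with a median log2 difference of -0.19. EPHA4, an ephrin receptor, rose by 1.26 (SE 0.07, limma adjusted p = 0.00183), IER3 rose by 0.55, and SPRY2, which stands in this list too, rose as above. CCND1, the cyclin of the G1 phase, read 10.80 and 10.97 in PC-3-BM, against 11.73 and 11.83 in PC-3, and fell by 0.89 (SE 0.09, limma adjusted p = 0.00504). SPHK1, the sphingosine kinase, fell by 0.86 (SE 0.10), a call lost without PC-3.2. MYC, ETV4 and FOSL1, transcription factors, fell by 0.54, 0.57 and 0.46. SPRY4, which like SPRY2, DUSP4 and DUSP6 stands in the feedback list too, fell as above. The MYC call was lost when PC-3-BM.2 or either PC-3 array was left out, and the ETV4 and IER3 calls when either PC-3 array was. That of FOSL1 was lost whichever array was left out. DUSP6 and EGR1, both early targets of ERK and like IER3, MYC, ETV4 and FOSL1 named after their values were seen, differed by -0.25 and -0.20 and did not pass. With 1 PC-3 array left out fewer genes of the list fell, as did fewer probe sets over the whole array.

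Markers of the cells were read on the same arrays. Of 8 markers of a prostate epithelial line 6 fell and none rose, a share of 75% lower beside 14.8% over all genes. KRT8, an epithelial keratin, read 8.83 and 9.05 in PC-3-BM, against 11.02 and 10.93 in PC-3, and KRT18 read 10.31 and 10.43 in PC-3-BM, against 10.83 and 10.71 in PC-3. KRT8 fell by 2.03 on the log2 scale and kept its call whichever array was left out, and KRT18 fell by 0.40, a call lost whichever array was left out. KLK3, the androgen-driven prostate-specific antigen, lay at 6.0 and 5.72 in PC-3-BM and at 5.83 and 5.76 in PC-3, under the median probe set of the array, 6.68, in both lines. Summed log2 levels of the 8 blood markers measured were 46.0 to 46.2 in PC-3-BM and 45.7 to 46.0 in PC-3, and those of the 9 stroma and bone markers 52.6 to 52.8 in PC-3-BM and 51.6 to 51.8 in PC-3. The blood marker PTPRC read 3.93 and 4.05 in PC-3-BM, against 3.81 and 3.70 in PC-3, below the lower quartile of the array, while CD68, 1 of the 8, rose. Of the stroma and bone list COL1A1 and LUM rose. Of the 6 endothelial markers, with sums of 39.81 to 39.88 in PC-3-BM and 40.03 to 40.06 in PC-3, PECAM1 rose. The shares that rose were 12.5% of the blood, 22.2% of the stroma and bone and 16.7% of the endothelial markers, beside 14.8% over all genes. Of these marker calls, those of CD68 and COL1A1 held whichever array was left out, that of LUM was lost in 3 of the 4 such fits and that of PECAM1 in all 4. The part of these shifts in the values of the family was not tested. The marker probe sets are for human genes, while cells of the host would be from mice. Whether host cells were present was thus not tested. Arrays of 1 line correlated at r = 0.996 (PC-3-BM) and 0.997 (PC-3) over all probe sets, and arrays of different lines at 0.983 to 0.985.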

How the data were processed

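RNA from 2 PC-3-BM and 2 PC-3 samples was measured on 1-colour arrays. The authors deposited log2 values made by RMA (background correction, quantile normalisation and summary by probe set), and the submitters' processing notes name R 3.2 and limma 3.24. The genome build behind the probe sets is not given in the sources used here. Of 33297 probe sets, 19460 carried 1 gene symbol in the platform annotation, 1754 several and 12083 none. All probe sets were fitted with limma 3.58.1 in R 4.3.3 (lmFit and eBayes, lines as groups, no covariate), with Benjamini-Hochberg adjustment over all of them and a threshold of 0.05; the procedure was tested on artificial data with known answers. The scale was not changed further. The number of arrays limits the precision.

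The members and gene lists were chosen with earlier results of these data known. In each list up to 4 genes with the largest difference past the threshold were named, and beside members the nearest genes on each side. Neighbours were taken in RefSeq order, through gene identifiers. Alternatives were centring of arrays, a filter on dim probe sets (mean above 5), 1-symbol probe sets only, the mean over probe sets, a variance trend, no moderation, the replicate block and each array left out.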

Additional observations from a re-analysis of the deposited data

How the results depend on the processing

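The EGFR rise kept its direction under all 11 alternatives, between 0.68 and 0.76, and missed the threshold only without moderation of the variance, where 0 members other than EPGN rose and 13 probe sets passed in all, against 7717. Members other than EPGN that fell numbered 1 of 7 with the mean filter, 2 of 8 among 1-symbol probe sets and 1 of 8 with a variance trend. The main fit had 0 of 8. Probe sets that fell in those fits numbered 4447 of 25094, 4049 of 19460 and 4513 of 33297, against 3863 of 33297 in the main fit. NRG1 changed sign, to -0.029 as the mean of its probe sets, and ran between -0.051 (without PC-3.1) and 0.11 with 1 array left out. At the thresholds of the study 17 probe sets passed in the main fit here. That is fewer than the number of genes the paper reports at those thresholds, and the cause of the gap was not tested. The count was 84 with centring, 85 with the mean filter, 83 among 1-symbol probe sets and 99 with a variance trend. It was 0 without moderation and 0 with the replicate block. The block changed no call among the members. Samples of the same number deviated from their line means without relation (r = -0.02), so the numbers were not taken to pair them.

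With centring, 3 adaptors and effectors fell, against 5. With 1 array left out, which leaves a line with 1 array assumed to vary like the other line, 2238 to 3854 probe sets passed at the adjusted threshold and 0 at those of the study. Genes that rose then numbered 2 to 5 for shedding, 0 to 3 for adaptors and 3 to 6 for feedback inhibitors. Genes that fell numbered 0 for the rest of the family, 1 to 2 for shedding, 1 to 2 for adaptors, 0 to 1 for feedback inhibitors, 1 to 4 for ERK output and 0 for receptor partners. The cause of these shifts was not tested, other than that fewer arrays leave fewer residual degrees of freedom. Dim probe sets, NRG1 and the PC-3 level of EPGN among them, limit what can be seen.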
